A study of Drosophila melanogaster with 30 samples.

Results

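The dopamine genes described here are 8 of the 17895 gene rows in the deposited count table of male *Drosophila melanogaster* brains. They were taken by symbol: *ple* and *Ddc* for synthesis, *Vmat* and *DAT* for transport, and *Dop1R1*, *Dop1R2*, *Dop2R* and *DopEcR* for reception. All 8 passed the filter on low counts. Brains came from wild-type Canton-S males (CS) and from 4 mutants, each group-housed (GH) or single-housed (SH), with 3 libraries in each of the 10 groups and 30 brains pooled per library. The labelled genotypes were w+/Y; Or47b2/3;+/+ for Or47b, w+/Y; +/+; Or67dGAL4/GAL4 for Or67d, w+/Y; +/+; fruLexA/4-40 for fru, and w-/Y; +/+; dsxf00683-d07058/f01649-d09625 for dsx. Each of *Or47b* and *Or67d* codes for a pheromone-sensing olfactory receptor, while the products of *fru* and *dsx* are transcription factors that set sex-specific traits. The dsx line alone is labelled w-, so the dsx alleles and this *white* background cannot be told apart. The labels used here give no age, and p-values measure the spread between these pooled libraries.

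Dopamine is made from tyrosine by tyrosine hydroxylase and then dopa decarboxylase, is packed into synaptic vesicles by a vesicular transporter, and is taken back up after release by a plasma membrane transporter. Its receptors are G protein-coupled: D1-like receptors raise cAMP, and D2-like receptors lower it. In the fly brain a small set of dopaminergic neurons serves arousal, courtship drive, and learning in the mushroom body, whose intrinsic neurons, the Kenyon cells, carry dopamine receptors. The study's design asks whether housing and these mutations change the male brain transcriptome. In whole-brain RNA, fewer cells of a type and less RNA per cell cannot be told apart.

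Total counts ran from 37612941 to 120862312 per library. Mitochondrially encoded genes took 12.4 to 14.1% of counts in the dsx libraries and 2.51 to 11.1% in all others, so the dsx libraries stood apart. A deposited batch table has a column "dissection" with 2 values, AC and notAC, and gives no key to them. The 6 AC libraries are CS GH replicate 3, CS SH replicate 2, and replicate 3 of Or47b GH, Or47b SH, fru GH and fru SH. AC and notAC libraries differed in 54.7% of all genes tested, and the summed level of 9 retina markers was 730 to 1696 CPM (counts scaled to library size) in AC libraries and 223 to 1045 in notAC libraries. Tests below carry an AC term, and that term passed the threshold for 4 of the 8 members: *Ddc* (-0.22 ± 0.07 log2), *Dop1R1* (-0.42 ± 0.11), *Dop1R2* (-0.24 ± 0.07) and *DopEcR* (-0.35 ± 0.07). All 4 mutants were compared with the same CS libraries, so their differences from CS are not independent of each other. The genotype labels do not give the strain background of the mutants. A mutation and a difference of background from CS therefore cannot be told apart.

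The 8 genes spanned a wide range of levels. Per kilobase of exon, averaged over 30 libraries, *Ddc* was highest at 244 ± 48.1 CPM per kb (SD), followed by *DopEcR* at 131 ± 26.2, *Vmat* at 95.3 ± 17.5 and *Dop2R* at 40.5 ± 19. The remaining 4 lay close together: *Dop1R2* at 15.2 ± 1.96, *ple* at 13.4 ± 3.26, *Dop1R1* at 12.7 ± 2.98 and *DAT* at 9.93 ± 1.01 CPM per kb. The order was the same per kilobase of the longest transcript. Annotated transcripts ran from 2616 to 14565 bases for *Dop1R1* and from 2446 to 7325 bases for *Vmat*. Which of them were present was not measured, so the order holds for these lengths only. Within a gene, *Dop2R* varied most between libraries, with 5.02 times as much in the highest library as in the lowest. *Dop1R1* varied by 3.48 times, *ple* by 3.31 times, *DopEcR* by 2.4, *Ddc* by 2.27 and *Vmat* by 2.1 times. *Dop1R2* and *DAT* were the steadiest, at 1.69 and 1.54 times. When the 10 groups were ordered by level, neighbouring groups overlapped nearly everywhere: only 1 of 9 neighbouring pairs was apart for *ple* and 2 of 9 for *Dop1R1*, and none for the other 6 genes.

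**Figure D1:**
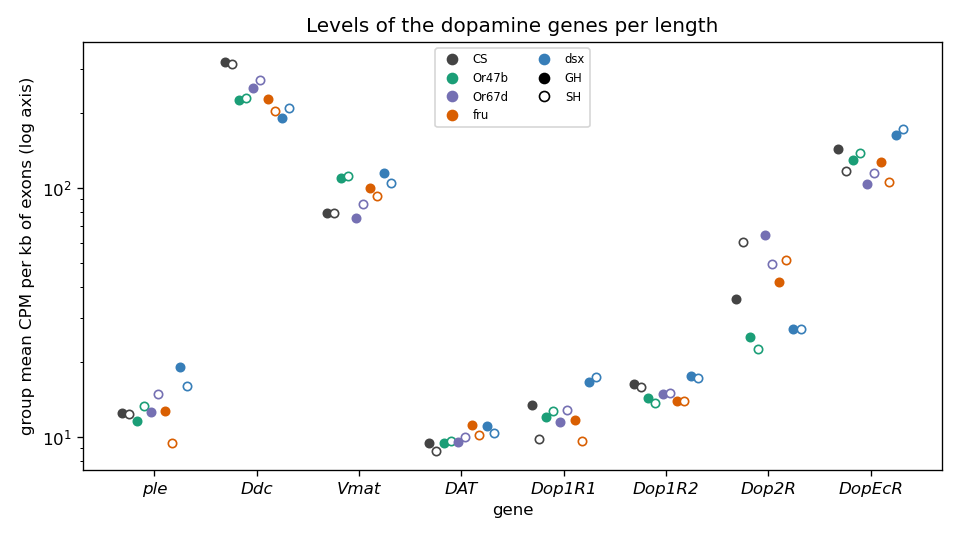
Group mean level per kilobase of exon (log axis) for each gene, 1 point per group of 3 libraries, coloured by genotype; filled points are GH and open points SH. Ddc lies highest (244 CPM per kb over all libraries) and DAT lowest (9.93), and Dop2R shows the widest spread of groups.

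**Figure D2:**
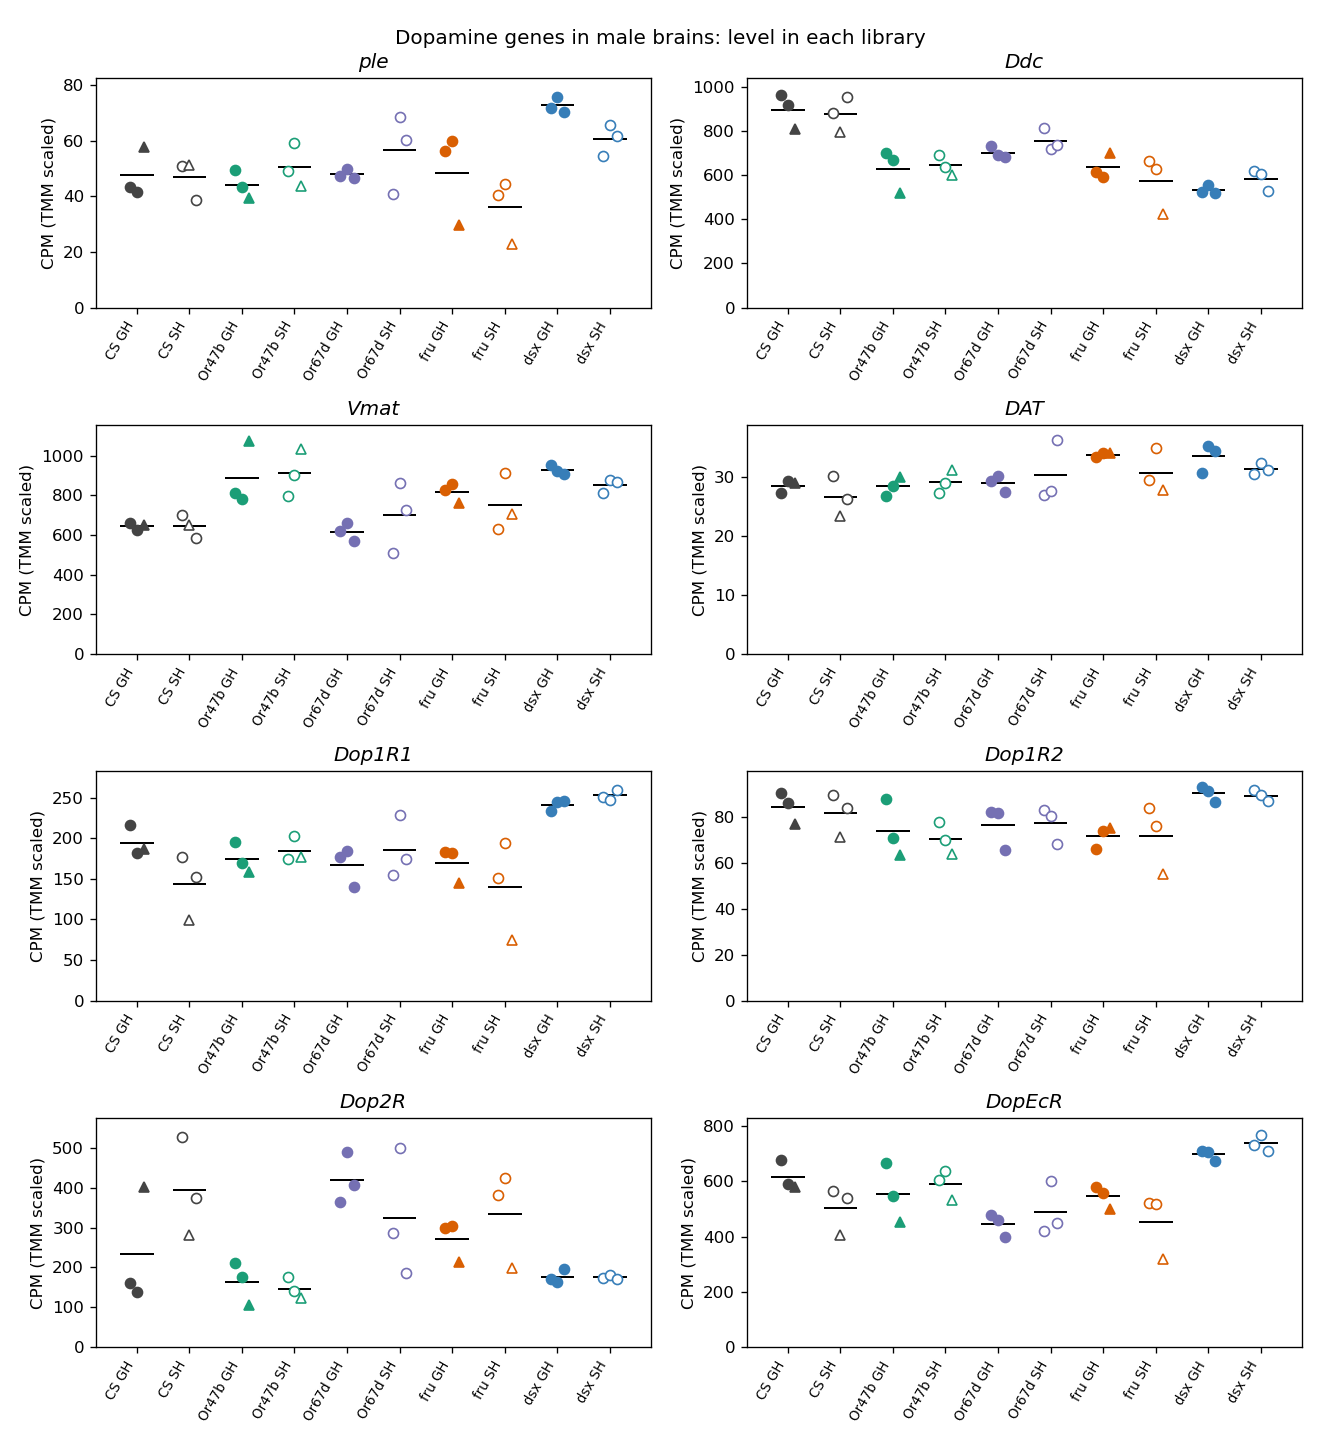
Level of each dopamine gene (CPM after TMM scaling, axes from 0) in every library, by group; bars are group means of 3 libraries, filled symbols GH, open symbols SH, and triangles the 6 AC libraries. All 6 CS libraries lie above 23 of the 24 mutant libraries for Ddc, and the fru AC libraries are the lowest 2 for ple.

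*Ddc*, which encodes dopa decarboxylase and serves both dopamine and serotonin synthesis, was lower in all 4 mutants than in CS. It lies on chromosome 2L at 19116483 to 19120306, minus strand (coordinates here and below are of the BDGP6 build). CS GH libraries held 963, 921 and 809 CPM and CS SH libraries 884, 798 and 954 CPM. The dsx libraries held 522, 556 and 518 CPM in GH and 621, 606 and 528 CPM in SH. Both dsx groups lay wholly below both CS groups. Over all mutants, 23 of 24 libraries fell below the lowest CS library, the exception being Or67d SH replicate 1 at 814 CPM.

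The difference passed the test in 7 of 8 comparisons with CS (edgeR quasi-likelihood test, Benjamini-Hochberg adjustment over 11269 genes, threshold 0.05). In dsx the change was -0.82 ± 0.11 log2 (SE) in GH (adjusted p = 1.17e-05) and -0.66 ± 0.11 in SH (adjusted p = 0.000103), a level of 0.565 and 0.634 times that of CS. In fru the change was -0.48 ± 0.11 in GH (adjusted p = 0.00324) and -0.63 ± 0.11 in SH (adjusted p = 0.000272). In Or47b it was -0.52 ± 0.11 in GH (adjusted p = 0.00582) and -0.44 ± 0.11 in SH (adjusted p = 0.0154). In Or67d it was -0.42 ± 0.11 in GH (adjusted p = 0.0157), and in SH the value of -0.28 ± 0.11 did not pass (adjusted p = 0.176, 95% interval -0.52 to -0.05). The share of all genes called in either direction was 3.79% for Or47b in GH and 8.43% in SH, 9.77% and 5.64% for Or67d, 17% and 13.6% for fru, and 21.7% and 42.1% for dsx. Both dsx calls and the fru SH call held in every alternative run; differences between the mutants were not tested. The Or47b GH call was lost without Or47b GH replicate 3 (adjusted p = 0.0681), and the Or47b SH call without Or47b SH replicate 2 (0.0857), CS SH replicate 2 (0.064) or CS SH replicate 3 (0.0629). The Or67d GH call was lost without Or67d GH replicate 2 (adjusted p = 0.0577), Or67d GH replicate 3 (0.071) or CS GH replicate 1 (0.0629). By setting, the Or67d GH call was lost without a batch term (0.143) and with the mitochondrial covariate (0.053), and the Or47b SH call without a batch term (0.0743) and with a separate AC term per genotype (0.0588). With only the groups compared in the fit, the Or47b GH (0.114) and fru GH (0.0881) calls were lost. *Ddc* shares exonic bases with *CG10561* on the opposite strand, and whether the counting used strand is not given in the sources used here. *CG10561* was at 37.9 to 64.6 CPM, far under *Ddc*. Against CS it was 0.37 ± 0.07 log2 higher in Or47b GH (adjusted p = 0.00203) and in Or47b SH (adjusted p = 0.00146). In dsx SH it was -0.24 ± 0.07 (adjusted p = 0.0102), and no other mutant comparison of *CG10561* passed. The part of the shared bases in the *Ddc* values was not tested.

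*ple* encodes tyrosine hydroxylase, the rate-limiting step of dopamine synthesis. The gene spans chromosome 3L from 6713356 to 6719525, minus strand. Its dsx libraries held 71.9, 75.8 and 70.3 CPM in GH and 54.6, 65.7 and 61.7 CPM in SH. The CS libraries held 43.5, 41.4 and 57.6 CPM in GH and 51, 51.3 and 38.8 CPM in SH. Each dsx group lay above the CS group of the same housing, without overlap, as did 24.3% of all genes in GH and 26.2% in SH. With an AC term shared by all genotypes the difference was 0.50 ± 0.22 log2 in GH (adjusted p = 0.109) and 0.27 ± 0.22 in SH (adjusted p = 0.343), and neither passed. Among the notAC libraries alone it was 0.78 ± 0.16 in GH (adjusted p = 0.0019) and 0.41 ± 0.16 in SH (adjusted p = 0.0488), and both passed. Without a batch term neither passed (adjusted p = 0.0691 in GH and 0.215 in SH). Both passed with a separate AC term per genotype, and both with only the groups compared in the fit. On the authors' normalized values limma called the GH difference alone. The call for *ple* in dsx thus depended on the setting, the handling of AC among them.

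The AC minus notAC difference of *ple* itself differed between CS, Or47b and fru (adjusted p = 0.00673), a test that 1.04% of all genes passed. The fru AC libraries held 29.6 CPM in GH and 22.9 CPM in SH, against 40.6 to 59.7 CPM in the other 4 fru libraries. The CS AC libraries held 57.6 and 51.3 CPM, each the highest of its group. No *ple* comparison of Or47b, Or67d or fru with CS passed the test; their values ran from -0.42 ± 0.22 (fru SH) to 0.17 ± 0.22 (Or67d SH).

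*Vmat*, the vesicular monoamine transporter that loads dopamine, serotonin, octopamine and histamine into vesicles, was higher in dsx. Its position is chromosome 2R, 13513132 to 13534251, minus strand. The dsx libraries held 953, 925 and 908 CPM in GH and 814, 877 and 869 CPM in SH. The CS libraries held 659, 624 and 652 CPM in GH and 700, 650 and 587 CPM in SH. The dsx and CS libraries did not overlap. The change was 0.55 ± 0.15 log2 in GH (adjusted p = 0.0119), 1.47 times the CS level, and 0.43 ± 0.15 in SH (adjusted p = 0.0279). With the mitochondrial share of each library as a covariate neither passed (0.25 ± 0.15 in GH), and the SH value turned to -0.14 ± 0.20. The SH call was also lost among notAC libraries (adjusted p = 0.0839) and without CS SH replicate 2 (0.0757), CS SH replicate 3 (0.112), dsx SH replicate 2 (0.081) or dsx SH replicate 3 (0.0686).

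Or47b also had high *Vmat*, at 814, 781 and 1072 CPM in GH and 795, 903 and 1033 CPM in SH. All 6 lay above the highest CS library. The change passed in SH, at 0.49 ± 0.15 log2 (adjusted p = 0.0445), but not in GH, at 0.46 ± 0.15 (adjusted p = 0.103). The SH call was lost in 8 of 10 other settings. It was also lost without Or47b SH replicate 2 or 3 or CS SH replicate 2 or 3 (adjusted p from 0.127 to 0.221). The GH difference was called by DESeq2 (adjusted p = 0.0489) and with the mitochondrial share as a covariate. That covariate also gave a call in fru GH. In fru the values of 0.34 ± 0.15 in GH and 0.22 ± 0.15 in SH did not pass, nor did -0.04 ± 0.15 and 0.14 ± 0.15 in Or67d. Over all mutants, 19 of 24 libraries lay above the highest CS library. *Vmat* shares exonic bases with *CG13330* on the opposite strand, which was at 0.197 to 2.23 CPM. *CG13330* was lower than in CS in dsx GH (-1.36 ± 0.48 log2, adjusted p = 0.0468) and dsx SH (-2.48 ± 0.50, adjusted p = 0.000515). It passed in no other mutant.

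*DAT* encodes the plasma membrane transporter that takes dopamine back up into the neuron. It is found on chromosome 2R from 16558567 to 16565238, minus strand. Levels were 23.5 to 30.3 CPM in CS and 26.9 to 36.4 CPM in the mutants. No comparison with CS passed. The largest values were 0.24 ± 0.10 log2 in fru GH (adjusted p = 0.104, 95% interval 0.03 to 0.45) and 0.22 ± 0.10 in dsx SH (adjusted p = 0.0838, interval 0.01 to 0.44). DESeq2 called the dsx SH difference (adjusted p = 0.0399). So did edgeR with DESeq2 size factors and limma on the authors' normalized values. Among notAC libraries the dsx SH value did not pass (0.12 ± 0.11, adjusted p = 0.391). The dsx GH difference was called with only the groups compared in the fit.

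**Figure D3:**
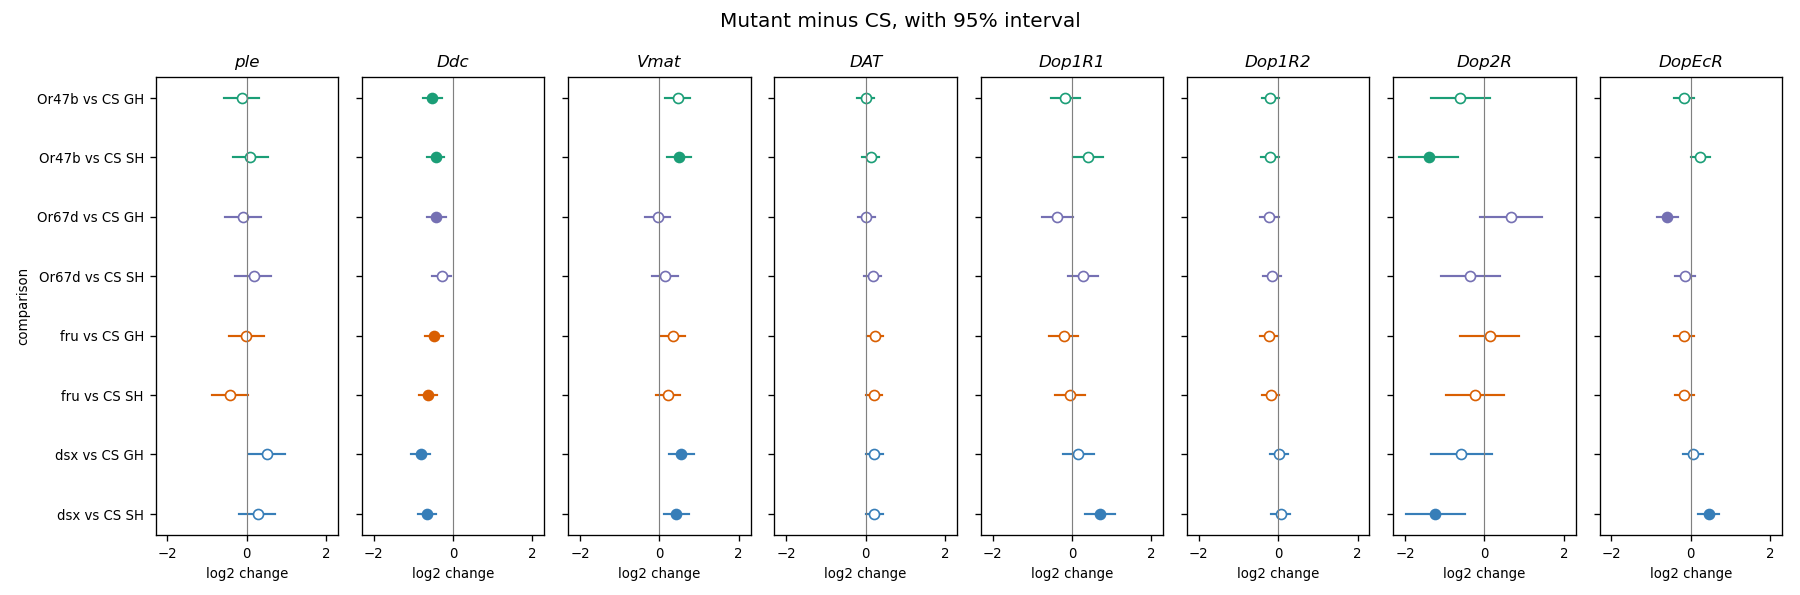
Log2 difference between each mutant and CS of the same housing for each gene, with 95% intervals; filled points passed the adjusted p threshold of 0.05 and open points did not. Ddc lies below 0 in all 8 comparisons, and in the fit shown Dop1R1 and Dop2R passed only in SH comparisons.

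*Dop1R1* encodes a D1-like receptor needed for olfactory learning in Kenyon cells. Its locus on chromosome 3R runs from 14165379 to 14214810, minus strand. The dsx libraries held 234, 245 and 246 CPM in GH and 251, 248 and 260 CPM in SH, above every library of the other genotypes. CS libraries held 216, 182 and 187 CPM in GH and 177, 99.6 and 153 CPM in SH. The SH comparison passed, at 0.71 ± 0.18 log2 (adjusted p = 0.00369), 1.64 times the CS level. The GH value was 0.16 ± 0.19 (adjusted p = 0.579), and the GH difference was called with only the groups compared in the fit. The difference between the SH and GH changes did not pass (0.55 ± 0.26, adjusted p = 0.358). With the mitochondrial share as a covariate the SH value was 0.17 ± 0.26 (adjusted p = 0.699). The 5 Kenyon cell markers together stood at 931 to 1003 CPM in dsx SH against 561 to 730 CPM for CS SH. Much of that sum was *sNPF*, at a mean of 547 CPM in dsx SH and 274 CPM in CS SH. The median change of the 5 was 0.07 log2. Of the 5, 2 (*sNPF* and *Mef2*) were called higher, beside 18.7% of all genes. The part of these markers in the *Dop1R1* value was not tested. No other mutant passed.

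*DopEcR*, which responds to both dopamine and ecdysteroids, was also higher in dsx SH. It maps to chromosome 3L, 4367649 to 4380387, minus strand. The dsx SH libraries held 733, 768 and 711 CPM, against 564, 406 and 540 CPM in CS SH. The change was 0.45 ± 0.12 log2 (adjusted p = 0.00545), while in GH it was 0.06 ± 0.12 (adjusted p = 0.769); the difference between them did not pass (adjusted p = 0.33). With the mitochondrial share as a covariate the SH value was 0.20 ± 0.19 (adjusted p = 0.502). In Or67d GH *DopEcR* was lower than in CS GH. The Or67d GH libraries held 477, 459 and 397 CPM against 677, 592 and 580 CPM, without overlap. That change was -0.59 ± 0.12 log2 (adjusted p = 0.00247), 0.664 times the CS level, and of the alternatives run it was lost without a batch term (adjusted p = 0.118). The mitochondrial share was 2.51 to 5.41% in Or67d GH and 4.42 to 10.3% in CS GH, and with it as a covariate the value was -0.49 ± 0.13 (adjusted p = 0.0206).

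*Dop2R* encodes the D2-like receptor, which also acts as an autoreceptor on dopaminergic neurons. The gene is on the X chromosome, 20004680 to 20062706, minus strand. The 3 CS SH libraries held 527, 282 and 375 CPM. The dsx SH libraries held 174, 181 and 172 CPM, and the Or47b SH libraries 177, 141 and 123 CPM. Both mutant groups lay below every CS SH library. The change was -1.24 ± 0.36 log2 in dsx SH (adjusted p = 0.00836), 0.423 times the CS level, and -1.41 ± 0.36 in Or47b SH (adjusted p = 0.0177), 0.376 times. The dsx call was lost without CS SH replicate 1 (adjusted p = 0.0503) and with the mitochondrial covariate (0.219). The Or47b call was lost without CS SH replicate 1 (adjusted p = 0.0548), Or47b SH replicate 2 (0.0845) or Or47b SH replicate 3 (0.0888), and also with the covariate (0.0678) and with a separate AC term per genotype (-1.12 ± 0.35, adjusted p = 0.0665).

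In GH the comparisons of *Dop2R* with CS moved with a single CS library. CS GH replicates 1 and 2 held 161 and 139 CPM, and replicate 3, an AC library, held 401 CPM. Among notAC libraries *Dop2R* was 1.51 ± 0.27 log2 higher in Or67d GH than in CS GH (adjusted p = 0.00144) and 1.02 ± 0.29 higher in fru GH (adjusted p = 0.0282). With all libraries these values were 0.68 ± 0.38 (adjusted p = 0.285) and 0.13 ± 0.36 (adjusted p = 0.849). The other two GH values changed sign and did not pass either way: Or47b went from -0.61 ± 0.36 with all libraries to 0.38 ± 0.29 among notAC libraries (adjusted p = 0.678), and dsx from -0.58 ± 0.38 to 0.23 ± 0.26 (adjusted p = 0.558). Within CS GH the *Dop2R* level moved with other features of the libraries: nuclear ribosomal RNA took 1.78% of counts in CS GH replicate 3 and 0.335 and 0.223% in replicates 1 and 2. *18SrRNA:CR45838* was at 5662 CPM in CS GH replicate 3 and at 536 and 231 CPM in the others. Between groups, ribosomal RNA took 1.3 to 1.64% of counts in CS SH and 0.164 to 0.224% in Or47b SH. It took 1.08 to 2.04% in Or67d GH and 0.64 to 1.07% in fru GH. *18SrRNA:CR45838* was at 4562, 3380 and 3084 CPM in CS SH and at 456, 485 and 519 CPM in Or47b SH. Within dsx SH, ribosomal RNA took 0.443, 1.64 and 0.285% and *18SrRNA:CR45838* was at 364, 1025 and 166 CPM. *Dop2R* was at 174, 181 and 172 CPM in these libraries. The part of ribosomal RNA content in the *Dop2R* values was not tested.

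*Dop1R2*, another D1-like receptor, which couples to calcium signalling and has a role in forgetting, did not pass in any comparison. It is on chromosome 3R from 29630304 to 29659984, minus strand. Its levels were 71.2 to 90.2 CPM in CS and 55 to 93 CPM in the mutants. Values against CS ran from -0.23 ± 0.11 log2 (fru GH, adjusted p = 0.165) to 0.06 ± 0.11 (dsx SH, adjusted p = 0.705).

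In all, 15 of the 64 tests of a dopamine gene in a mutant against CS passed: 7 of 16 in dsx, 4 in Or47b, and 2 each in Or67d and fru. *Ddc* supplied 7 of these 15. Of 8 members, 1 was called in Or47b GH (3.79% of all genes called) and 3 in Or47b SH (8.43%). In Or67d 2 were called in GH (9.77%) and 0 in SH (5.64%). In fru 1 was called in GH (17%) and 1 in SH (13.6%), and in dsx GH 2 were (21.7%). The 5 members called in dsx SH of 8 stood beside 42.1% of all genes called in that comparison, so that count is not particular to these genes. Members whose 3 mutant libraries all lay to the same side of the 3 CS libraries numbered 5 in dsx GH and 7 in dsx SH, where 52.1% and 57.2% of all genes did so. They numbered 4 in fru GH (25.4% of all genes), 1 in fru SH (16.5%), 2 in Or47b GH (12.4%), 3 in Or47b SH (18.4%), 2 in Or67d GH (34.1%) and 0 in Or67d SH (15.7%). With the mitochondrial share as a covariate, 7 of the 15 calls remained; the dsx libraries lay outside the range of the other genotypes in this share, as the plot against mitochondrial share shows.

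**Figure D4:**
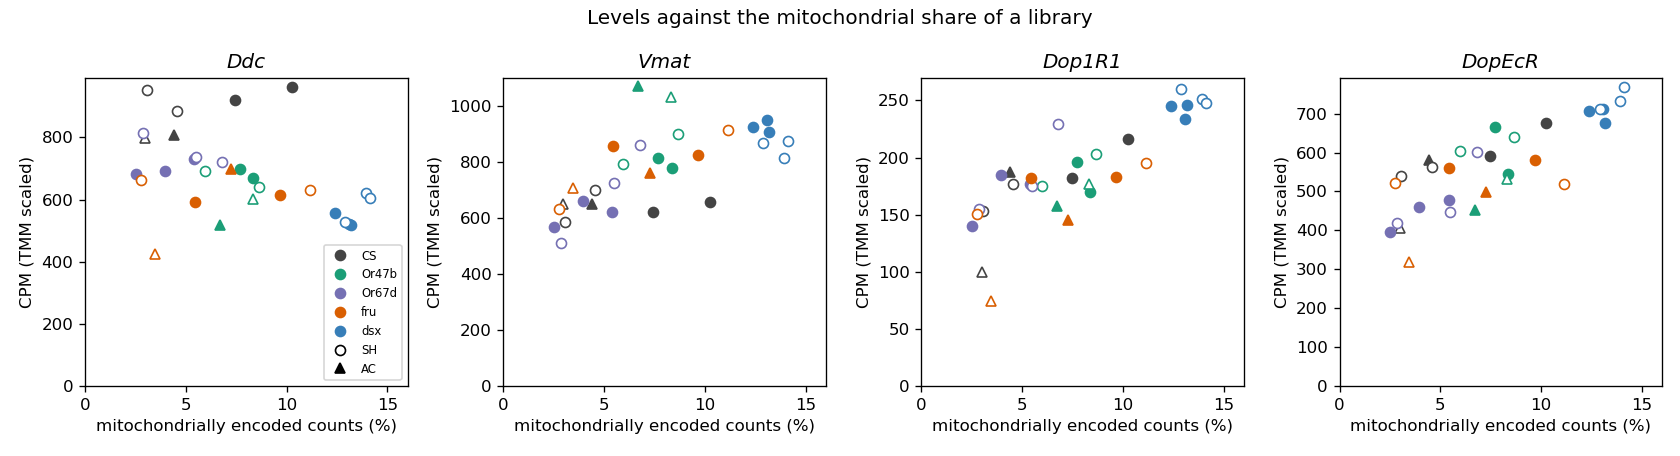
Level of Ddc, Vmat, Dop1R1 and DopEcR (CPM) against the share of counts from mitochondrially encoded genes (%), 1 point per library, coloured by genotype; open symbols are SH and triangles AC libraries. The dsx libraries lie at 12.4 to 14.1%, beyond the 2.51 to 11.1% of the other genotypes, and hold the highest levels of Dop1R1 (234 to 260 CPM).

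None of the 8 genes passed the test for housing. Of 40 tests of SH against GH within a genotype, 0 passed, and 3 reached an unadjusted p under 0.05; DESeq2 also called 0. Of all 11269 genes, those at an unadjusted p under 0.05 numbered 2087 in CS, 484 in Or47b, 340 in Or67d, 1186 in fru and 382 in dsx. Housing called 1.86% of all genes in CS, 0.213% in Or47b, 0.0266% in Or67d, 0.169% in fru and 0.0177% in dsx. Members whose SH and GH libraries did not overlap numbered 2 in CS (17.6% of all genes) and 3 in dsx (21.4%), and 0 in Or47b (4.54%), Or67d (6.03%) and fru (4.85%). In CS *Dop1R1* was at -0.48 ± 0.18 log2 (95% interval -0.86 to -0.11, adjusted p = 0.144) and *DopEcR* at -0.31 ± 0.12 (95% interval -0.56 to -0.06, adjusted p = 0.159). In both, the 3 SH libraries lay below the 3 GH libraries, as did 10.5% of all genes. The CS SH libraries had a mitochondrial share of 2.99 to 4.56%, against 4.42 to 10.3% for CS GH; with this share as a covariate the 2 values were -0.27 ± 0.18 (adjusted p = 0.542) and -0.21 ± 0.13 (adjusted p = 0.506). In fru *ple* was at -0.43 ± 0.21 (adjusted p = 0.486), *Dop1R1* at -0.33 ± 0.18 (adjusted p = 0.531) and *DopEcR* at -0.30 ± 0.12 (adjusted p = 0.402).

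The housing value of *Dop2R* in CS depended on a single library. Over all libraries SH minus GH was 0.66 ± 0.36 log2 (95% interval -0.09 to 1.41, adjusted p = 0.344). Without CS GH replicate 3 it was 1.59 ± 0.27 (adjusted p = 0.00272). Among notAC libraries, which leaves out CS GH replicate 3 and CS SH replicate 2, it was 1.62 ± 0.29 (adjusted p = 0.0168). The difference between the housing effects of Or67d and CS for *Dop2R* was -1.03 over all libraries (adjusted p = 0.351) and -1.99 ± 0.37 among notAC libraries (adjusted p = 0.0482).

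Averaged over the 5 genotypes, the housing effects of the 8 genes lay between -0.10 and 0.08 log2, with 1.28% of all genes called and none of the 8. *Ddc* was 0.02 ± 0.05 (95% interval -0.08 to 0.12) and *DAT* -0.05 ± 0.05 (-0.14 to 0.05). Of 32 tests of whether a mutant's housing effect differs from that of CS, 0 passed (6 at an unadjusted p under 0.05, DESeq2 0). Background shares of adjusted calls there were 0.0177% for Or47b, 0.177% for Or67d, 0.222% for fru and 0.00887% for dsx. At an unadjusted p under 0.05 stood 935 of 11269 genes for Or47b, 1617 for Or67d, 915 for fru and 1506 for dsx.

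**Figure D5:**
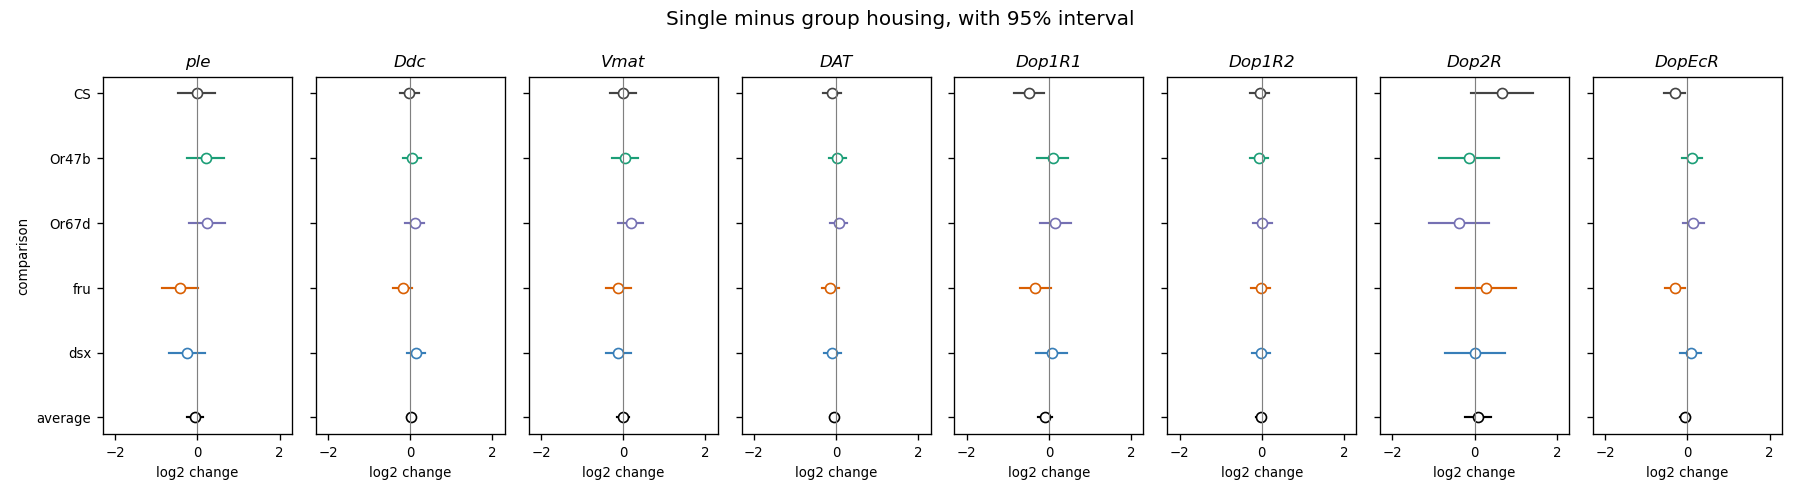
Log2 difference between SH and GH for each gene in each genotype and averaged over genotypes, with 95% intervals; filled points would mark calls at the adjusted p threshold of 0.05, and there are none. Dop2R has the widest intervals.

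Among 12 genes of the cofactor and breakdown steps of dopamine, 0 passed for housing. In dsx SH, 1 was higher and 5 were lower than in CS, beside 18.7% and 23.4% of all genes, and in fru GH 3 were higher, beside 9.37%. *Pcd*, which recycles the pterin cofactor of tyrosine hydroxylase, was -0.47 ± 0.15 log2 in dsx SH (adjusted p = 0.0118). *speck*, an arylalkylamine N-acetyltransferase that acetylates dopamine, was -0.32 ± 0.08 (adjusted p = 0.00382) there and -0.27 ± 0.08 in dsx GH (adjusted p = 0.024). In Or47b SH *speck* was also lower than in CS, at -0.30 ± 0.08 (adjusted p = 0.0266). *e*, whose product joins dopamine to beta-alanine, was 0.69 ± 0.17 in fru GH (adjusted p = 0.00702) and -0.57 ± 0.18 in dsx SH (adjusted p = 0.0122). *t*, whose product reverses that step, was higher in fru GH (1.40 ± 0.29, adjusted p = 0.00136), fru SH, dsx GH and dsx SH; its level was low, 1.65 to 18.4 CPM over these and the CS groups. *t* is also expressed in photoreceptors, and the part of retina RNA in its values was not tested. The 9 retina markers summed to 368 to 1007 CPM in fru GH, 223 to 375 CPM in dsx GH and 234 to 730 CPM in CS GH. In SH they summed to 425 to 1636 CPM in fru, 240 to 335 CPM in dsx and 252 to 1696 CPM in CS. None was called higher in these 4 comparisons, and 4 of the 9 were called lower in dsx SH and 1 in fru SH.

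Of 14 genes of dopamine receptor signalling, 12 were higher in dsx SH than in CS SH, against 18.7% of all genes called higher there. Arrestin *krz* was 1.09 ± 0.18 log2 (adjusted p = 8.35e-05), the G protein subunit *Galphaq* 1.03 ± 0.17 (adjusted p = 5.8e-05), phospholipase *Plc21C* 0.68 ± 0.12 (adjusted p = 0.000141) and the protein kinase A subunit *Pka-C1* 0.56 ± 0.12 (adjusted p = 0.000556). In dsx GH 1 of 14 was higher, beside 8.12% of all genes. In the SH comparison 4 of 5 neuron markers were also higher, among them *elav* at 0.83 ± 0.17 (adjusted p = 0.000408), and their summed level was 9669 to 9920 CPM in dsx SH and 6217 to 6816 CPM in CS SH. With the mitochondrial share as a covariate 0 of the 14 were called, and among notAC libraries 10 were. The part of neuronal RNA content and of the mitochondrial share in the dsx SH values was not tested. In Or67d GH 3 of 14 were lower, beside 4.64% of all genes, and in Or47b SH 2 were higher, beside 4.2%.

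The genes whose level was most like that of a member, by Pearson r of log2 CPM over 30 libraries with the AC term removed, are given as a description, since libraries share genotype and composition. For *Ddc* the closest was *sals* (r = 0.91). For *ple* it was *Nep3* (0.89) with *unc-104* (0.89), a kinesin that carries synaptic vesicle precursors. For *Dop1R1* it was *l(3)80Fj* (0.97), followed by *PlexB* and the RNA editing enzyme *Adar* (0.96 each). For *Dop2R* it was *HERC2* (0.95), then *CG2111* (0.93) and *18SrRNA:CR45838* (0.92). *DopEcR* was closest to *promL* (0.94), *Dop1R2* to *CG34126* (0.91), *Vmat* to *PRL-1* (0.88) and *DAT* to *Bulli* (0.77).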

How the data were processed

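Brain mRNA libraries were made with a stranded kit, per the labels' protocols. The authors deposited a table of estimated counts per gene, which need not be whole; the submitters' processing notes name STAR, Salmon, DESeq2 and the BDGP6 build, without versions. A deposited normalized table, a signal scaled by the authors, was used only for an alternative. Rows that name no gene took 0.600 to 1.38% of counts and were left out. Counts were rounded and fitted in 1 edgeR 4.0.16 quasi-likelihood model (R 4.3.3) over the 30 libraries, whose design held the 10 groups and AC status, with TMM scaling and edgeR's default filter, which left 11269 genes. P-values were adjusted by Benjamini-Hochberg over these genes, with calls at 0.05. Levels are CPM after TMM scaling, and lengths and positions come from the Ensembl annotation of BDGP6. The script was tested on simulated data with 200 changed genes. Alternatives were DESeq2 1.42.0, DESeq2 size factors, limma 3.58.1 on log2 of the normalized signal plus 1, no filter, no batch term, notAC libraries only, the mitochondrial share as a covariate, only the groups compared, a replicate block, each library left out, and, chosen after seeing the data, a separate AC term per genotype. All 8 members are described; other lists name up to 4 called genes by smallest adjusted p, and the 3 most alike genes were taken per member. The members and lists were chosen with earlier results of these data known. No gene sequence is given here.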

Additional observations from a re-analysis of the deposited data

Results flagged for a closer look

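The AC minus notAC difference of *ple* differed between the 3 genotypes that have AC libraries (edgeR quasi-likelihood test of the difference, adjusted p = 0.00673), as it did in 1.04% of all genes. It was 0.32 ± 0.14 log2 in CS, -0.27 ± 0.14 in Or47b and -0.93 ± 0.15 in fru. Each genotype has 2 AC libraries and 4 notAC libraries, so each term rests on few libraries. The shared AC term was -0.26 ± 0.13 for *ple* (adjusted p = 0.1). The other members had adjusted p from 0.237 to 0.97 in this test.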

How the results depend on the processing

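Alternatives were followed for the 26 member values called in at least 1 setting other than a library left out. Of their recomputed values, 351 kept their direction and side of the threshold, 41 lost the call, 26 gained one and 4 changed sign. The number of members called for housing within genotypes went from 0 to 1 among notAC libraries, and so did the number called for a difference in housing effect; leaving out 1 library gave 0 to 1 for each, the call in both being *Dop2R* without CS GH replicate 3. The average housing effect kept 0 calls in each setting run; it uses all groups, so it has no value from only the groups compared. Or47b calls went from 4 to 2 without a batch term, 2 with only the groups compared and 1 with separate AC terms, and ran from 1 to 5 with 1 library left out. Or67d calls went from 2 to 0 without a batch term and 1 with the mitochondrial covariate, and ran from 1 to 3. The fru calls went from 2 to 1 with only the groups compared and ran from 2 to 3. The dsx calls went from 7 to 2 with the mitochondrial covariate and 11 with only the groups compared, and ran from 6 to 8. Among these 26, the changes of sign were *Dop1R1* in dsx GH (-0.13) and *Vmat* in dsx SH (-0.14), both with the mitochondrial covariate, and *Dop2R* in fru GH, which ran from -0.24 to 1.07 with 1 library left out; some values called in no setting also changed sign, such as *Dop2R* in Or47b GH and dsx GH. DESeq2 kept all 15 calls and added 2. With the AC term removed, in 0 of 13 comparisons did every same-numbered pair of libraries correlate above 0.1 (r from -0.38 to 0.17). Most AC libraries are replicate 3, so pairing that goes with AC was taken out before this check. It therefore cannot show that the samples were unpaired. A replicate block kept 15 of 15 calls, with 7 in dsx, 4 in Or47b, 2 in Or67d and 2 in fru. The cause of these shifts was not tested. With 3 libraries a group, differences of the size of the standard errors given cannot be resolved.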
